A study of Mus musculus with 6 samples.

Results

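The genes described here encode 34 enzymes that make, convert and recover purine and pyrimidine nucleotides. They were chosen by name, with earlier results of these data known. Each of the 34 names matched 1 of the 47643 reference genes in the abundance tables. All 34 were among the 12186 genes tested, with FPKM (fragment abundance scaled to transcript length and library size) between 2.03 and 215 in every library. The cells were natural regulatory T cells (nTregs) from spleens of C57BL/6 mice of the Foxp3-DTR/EGFP genotype. In these mice the Foxp3 locus carries a diphtheria toxin receptor and a green fluorescent protein. Cells of both groups had been stimulated for 2 days with plate-bound antibody to CD3, soluble antibody to CD28 and IL-2. They then spent 6 h with DMSO vehicle (3 libraries) or with 100 nM of an agonist of EP4, a Gs-coupled receptor for prostaglandin E2 (3 libraries), and were sorted on GFP. The labels give no age or sex of the mice and do not say whether the replicates are separate animals, so the spread behind each p-value may be technical rather than between animals.

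Resting T cells rely largely on salvage, in which free bases and nucleosides are recycled, and activation switches on de novo synthesis to supply DNA, RNA and nucleotide sugars for division. De novo purine synthesis builds the ring on phosphoribosyl pyrophosphate (PRPP) with formyl groups carried by folate, and ends in inosine monophosphate (IMP), from which AMP and GMP are made. De novo pyrimidine synthesis makes orotate first and attaches it to PRPP afterwards, giving UMP, and CTP is made from UTP.

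After 6 h of EP4 agonist, transcripts of most of these enzymes were lower than with vehicle, by a modest amount. The genes were chosen with earlier results of these data known, so contrasts with all tested genes are not independent of that choice. The difference was negative for 32 of the 34 genes, against 57.2% of all tested genes. The median log2 fold change was -0.31 over the 34 genes and -0.03 over all tested genes, and within pairs 1, 2 and 3 the median over the 34 genes was -0.31, -0.32 and -0.31. Single steps varied more between pairs: the median of the purine ring was -0.30, -0.55 and -0.44, and that of the nucleotide kinases -0.33, -0.02 and -0.26. In limma's test of the 3 agonist against the 3 vehicle libraries, 0 of the 34 rose and 0 fell at an adjusted p under 0.05, where 0.394% of tested genes passed in either direction. At an unadjusted p under 0.05, 16 of the 34 were lower and 0 higher, where 8.74% of tested genes were lower. With the replicate number as a block, which compares the libraries within pairs, limma called 19 of the 34 lower and 0 higher, where 6.41% of tested genes were called lower and 4.09% higher. The word fell is used below only for a gene that passed with this block, and an adjusted p when blocked is the one from this fit.

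The call of single genes depended on the pairing and on each pair. The pairing rests on the libraries themselves: deviations from the group means correlated at 0.512, 0.404 and 0.321 within pairs 1, 2 and 3, and a block chosen from the same libraries favours smaller p-values. With the block, limma called 5 of the 34 lower without pair 1 (background 0.739%), and 0 of the 34 lower without pair 2 or without pair 3 (background 0% both times), where 26 and 25 of the 34 had an unadjusted p under 0.05 and a negative difference, as did 13.2% and 12.4% of tested genes. Without the block, only leaving out vehicle replicate 1 gave calls, 2 of the 34 lower (Gart and Pfas, background 0.213%). With the block, 16 were called lower after quantile normalization (background 3.92%) and 25 when the deposited coverage column was used in place of FPKM, an alternative added after the data were seen (background 9.88%).

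The spread that separates both tests was visible in the libraries numbered 1. Vehicle replicate 1 had the lowest vehicle value for 28 of the 34 genes, where it was the lowest for 35.9% of all tested genes. Agonist replicate 1 had the lowest agonist value for 29 of the 34, where the share was 33.4% of all tested genes. Relative to the mean of each gene over the 6 libraries, the median of the 34 genes stood at 0.01, 0.28 and 0.18 (log2) in vehicle replicates 1, 2 and 3, and at -0.31, -0.04 and -0.12 in agonist replicates 1, 2 and 3. Thus vehicle replicate 1 lay near agonist replicates 2 and 3, whereas 29 of the 34 genes were lower with the agonist in all 3 pairs, as were 31.6% of tested genes. For 15 of the 34, every agonist library lay below every vehicle library, as it did for 12.1% of tested genes.

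**Figure D1:**
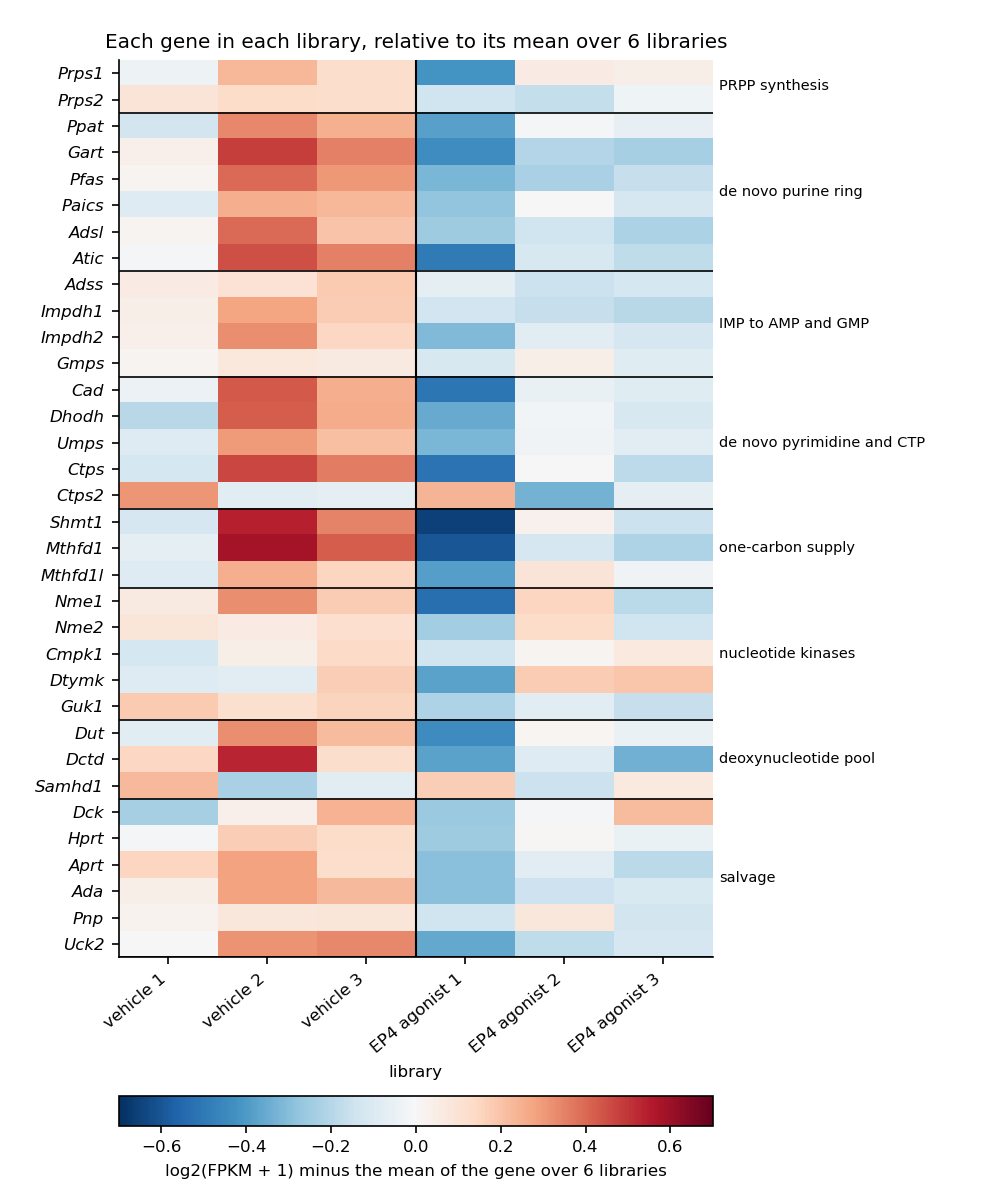
Each row is a gene and each column a library, coloured by log2(FPKM + 1) minus the mean of that gene over the 6 libraries (red above, blue below), and horizontal lines part the steps of the pathway. Vehicle replicates 2 and 3 are above the mean for most genes, agonist replicate 1 is the lowest agonist library for 29 of the 34, and vehicle replicate 1 lies between, with a median of 0.01.

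The libraries rested on 4.32 to 5.65 gigabases of aligned sequence, derived from the ratio of coverage to FPKM, and mitochondrially encoded genes held 4.51 to 6.80% of their FPKM. The 8 T cell and Treg markers summed to 1784 to 1955 FPKM in vehicle and 2015 to 2118 FPKM in agonist cells. Their median log2 fold change was 0.06, and the highest was that of Ctla4 at 0.65. Ctla4 had a mean of 242 FPKM in vehicle and 380 FPKM in agonist cells. The means were 132 and 135 FPKM for Foxp3, and 848 and 850 FPKM for Il2ra. The 6 B cell markers summed to 5.64 to 5.93 and 3.69 to 6.25 FPKM in the same order. The 4 CD8 and NK markers summed to 4.13 to 5.53 and 4.70 to 6.52 FPKM, and the 5 erythroid markers to 1.61 to 6.13 and 0.869 to 2.98 FPKM. The 8 myeloid and dendritic markers summed to at most 0.705 FPKM, with S100a8, S100a9 and Siglech at 0 in every library. Genes of the cell cycle were also lower with the agonist: of 22 such genes, 0 passed without the block and 10 fell with it, where the shares of all tested genes were 0.394% and 6.41%. Their median log2 fold change was -0.22, and the summed FPKM was 1800 to 2279 with vehicle and 1558 to 1923 with the agonist. Vehicle replicate 1 and agonist replicate 1 were the lowest of their groups for 22 and 21 of these 22 genes. The part of the cell cycle in the nucleotide results was not tested, and in bulk samples fewer cells in a state and less RNA per cell cannot be told apart.

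Levels of the 34 genes in vehicle cells spanned from Nme2 with 182 ± 3.85 FPKM (mean ± SD, n = 3 here and below) and Samhd1 with 181 ± 29.9 FPKM down to Dctd with 3.76 ± 0.797 FPKM. Hprt (105 ± 7.12 FPKM) and Impdh2 (96.6 ± 9.89 FPKM) came next to the top and differed by about their SDs. The enzyme that commits PRPP to the purine ring, Ppat, was among the low members with 18.2 ± 3.15 FPKM, whereas Paics, which acts later on the same route, had 77.2 ± 10.0 FPKM. FPKM is scaled per length, so these levels can be set side by side where reads were not shared between gene models. Nme2 overlaps a read-through gene model on the same strand, so its level and rank are less certain.

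**Figure D2:**
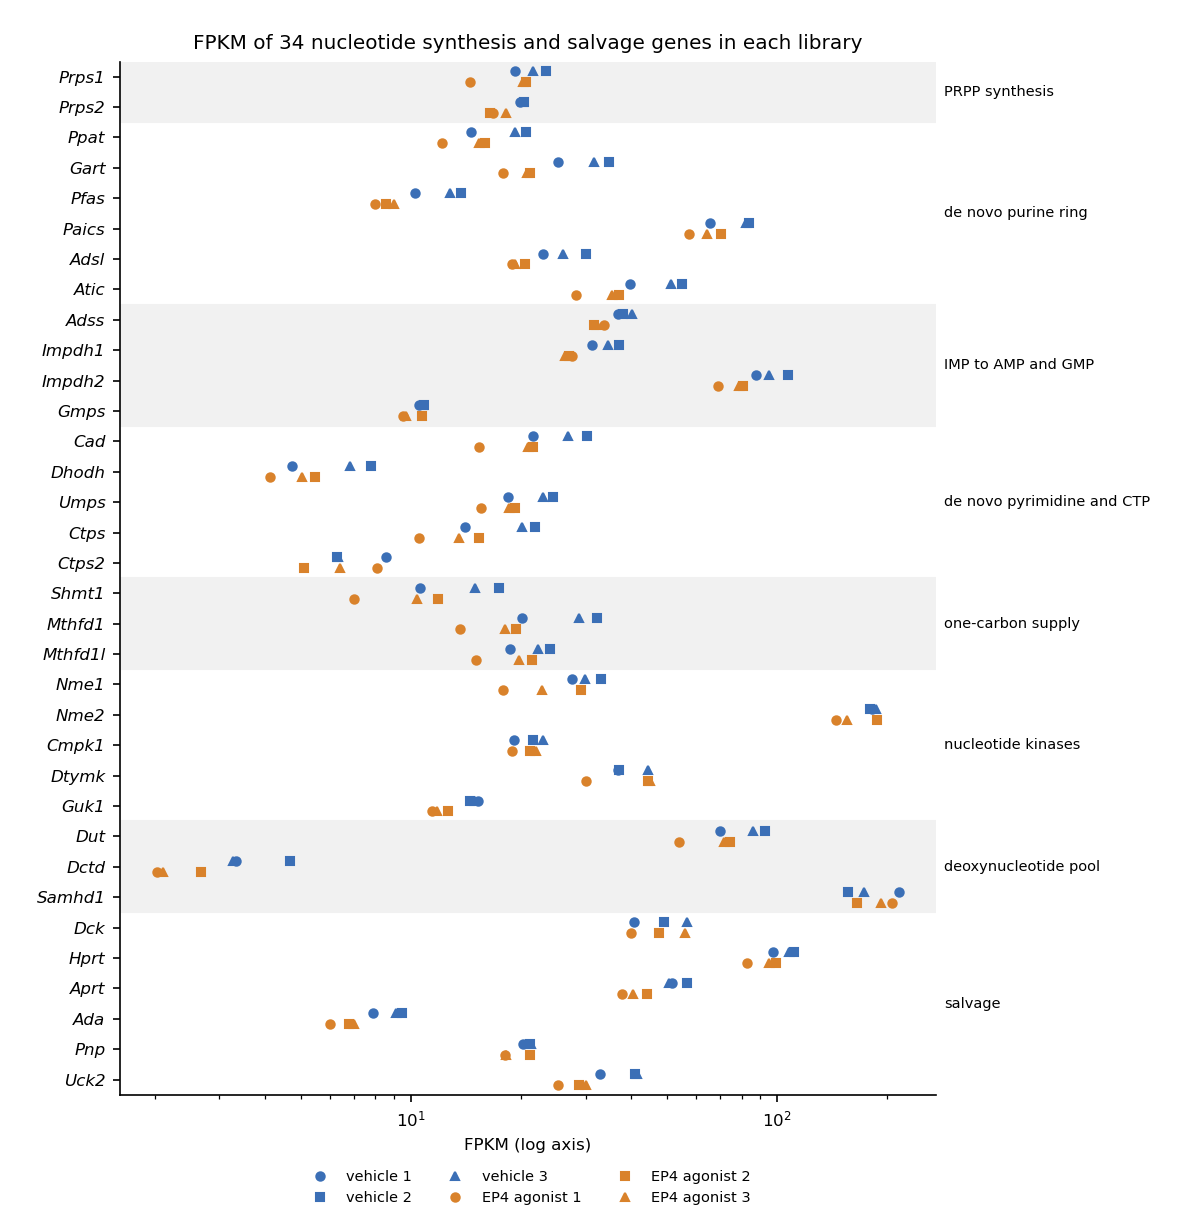
FPKM on a log axis for each of the 34 genes in the 3 vehicle libraries (blue) and the 3 EP4 agonist libraries (orange), with the marker shape giving the replicate number and genes grouped by step. Orange points lie to the left of the blue point of the same shape for most genes, while for Samhd1, Dck, Cmpk1 and Dtymk the groups cover much of the same range.

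Short motifs were looked up in the RefSeq promoter windows (GRCm38.p6, 250 bases before to 50 after each annotated start), which were found for 32 of the 34 genes; Dhodh and Pfas had none. The E-box CACGTG, the same on both strands, to which MYC and related factors bind, is present in the windows of 5 of the 32 genes (15.6%) and of 8.09% of all 27025 genes with a window. The cyclic AMP response element TGACGTCA, also the same on both strands, to which CREB binds, is present for Umps alone (3.12%, against 2.03% of all genes), and CCAAT on either strand for 14 of the 32 (43.8%, against 41.1%). The 27025 genes include genes that were not tested here, so the members, which were all tested, are set against an unlike background. The sites are shown because MYC is known to drive many of these enzymes and cyclic AMP lies downstream of EP4. Each line gives 30 bases on the strand of the gene with the motif in capitals, and Nme1 holds the E-box at 2 sites, of which 1 is shown. Distances are from the RefSeq start, which can differ from the gene start in the abundance tables.
Atic, chr1:71557137-71557166, plus strand, 7 bases before the start: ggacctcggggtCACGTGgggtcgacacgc
Paics, chr5:76951087-76951116, plus strand, 203 bases before the start: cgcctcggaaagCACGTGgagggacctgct
Impdh2, chr9:108560314-108560343, plus strand, 110 bases before the start: gagctcgataagCACGTGgttacccagctc
Nme1, chr11:93968273-93968302, minus strand, 18 bases before the start: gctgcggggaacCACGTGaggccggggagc
Dtymk, chr1:93802065-93802094, minus strand, 148 bases before the start: gtctcgaacttcCACGTGaccagagcctgc
Umps, chr16:33967017-33967046, minus strand, from 3 bases after the start: ggacttctgggTGACGTCAcgggccccaag

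The 5 genes with the E-box had a median log2 fold change of -0.34 and the 27 without it -0.30. Of the genes with the E-box, Atic, Impdh2 and Paics fell, whereas Nme1 did not pass and Dtymk had a log2 fold change of 0.00. Transcripts of Myc itself stood at 66.7 ± 14.0 FPKM in vehicle and 56.5 ± 9.35 FPKM in agonist cells, with overlapping groups (limma, adjusted p = 0.625, or 0.140 when blocked). A match of letters shows neither binding nor use of a site.

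PRPP, the activated ribose that both routes and the salvage transferases consume, is made by PRPP synthetases. Prps1 had 19.2, 23.4 and 21.6 FPKM in vehicle replicates 1, 2 and 3 and 14.5, 20.6 and 20.3 FPKM in agonist replicates 1, 2 and 3. Prps2 had 19.9, 20.4 and 20.3 FPKM in vehicle and 16.8, 16.5 and 18.2 FPKM in agonist cells, in groups that did not overlap. Neither passed limma's test (adjusted p = 0.557 and 0.253, or 0.129 and 0.0575 when blocked). Prps1l3, a gene on chromosome 12 named as a PRPP synthetase like Prps1, had 19.1 to 27.0 FPKM over the libraries, so the division of reads between the copies is uncertain.

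All 6 enzymes that build the purine ring fell with the block, where 6.41% of all tested genes were called lower. Their median log2 fold change was -0.44. Each was lower in all 3 pairs, as were 31.6% of tested genes. Ppat (chromosome 5, 76913249 to 76951578, minus strand, mm10), the amidotransferase of the committed step, had 14.6, 20.6 and 19.3 FPKM in vehicle and 12.2, 15.9 and 15.4 FPKM in agonist cells, so that vehicle replicate 1 lay within the agonist range. Its log2 fold change was -0.30 (SE 0.15; limma, adjusted p = 0.428, or 0.0319 when blocked). Gart (chromosome 16, 91621186 to 91646952), a trifunctional enzyme that catalyses 3 of the following reactions, had 25.2, 34.7 and 31.7 FPKM in vehicle and 17.9, 21.2 and 20.8 FPKM in agonist cells. The Gart groups did not overlap, and its mean fell by 34.6%, a log2 fold change of -0.58 (SE 0.13; adjusted p = 0.143, or 0.0174 when blocked). This adjusted p without the block was the lowest of the 34 genes.

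Pfas (chromosome 11, 68985697 to 69008460), which adds a nitrogen from glutamine, had 10.3, 13.7 and 12.8 FPKM in vehicle and 7.97, 8.55 and 8.99 FPKM in agonist cells, without overlap (log2 fold change -0.48, limma adjusted p = 0.164, or 0.0284 when blocked). Paics (chromosome 5, 76951307 to 76967509, plus strand), a bifunctional carboxylase and ligase, had 65.7, 83.6 and 82.3 FPKM in vehicle and 57.6, 70.1 and 64.3 FPKM in agonist cells (-0.26, adjusted p = 0.392, or 0.0427 when blocked). Vehicle replicate 1 of Paics lay among the agonist values, and the blocked adjusted p was 0.0794 after quantile normalization. Paics and Ppat start head to head, and their gene models overlap by 272 bases on opposite strands, so part of their reads could be shared if counting did not use strand, although the library kit keeps it. The same limit holds for Impdh2, Shmt1, Aprt and Pnp, whose models also overlap a tested gene on the opposite strand.

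Adsl, a lyase that acts both on the ring and on the way to AMP, had 22.9, 30.1 and 26.1 FPKM in vehicle and 18.9, 20.5 and 19.3 FPKM in agonist cells, without overlap (log2 fold change -0.41, limma adjusted p = 0.177, or 0.0313 when blocked). Atic, a bifunctional enzyme that adds the last formyl group and closes the ring to IMP, had 39.6, 55.1 and 51.4 FPKM in vehicle and 28.2, 37.0 and 35.4 FPKM in agonist cells. Its highest agonist value lay just below its lowest vehicle value, and its mean fell by 31.2% (-0.52, adjusted p = 0.211, or 0.0166 when blocked). The folate-using enzymes of the ring, Gart and Atic, thus had the most negative fold changes of the 6, a ranking of means that was not tested.

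From IMP, both IMP dehydrogenases, the rate-limiting enzymes of GTP synthesis, fell with the block, where 6.41% of all tested genes were called lower. Adss and Gmps did not pass. Impdh2 (chromosome 9, 108560286 to 108565584), the form induced in dividing lymphocytes, had 87.7, 107 and 94.8 FPKM in vehicle and 68.8, 80.9 and 78.8 FPKM in agonist cells. Impdh1 (chromosome 6, 29200434 to 29216364) had 31.3, 37.0 and 34.5 FPKM in vehicle and 27.6, 27.0 and 26.4 FPKM in agonist cells. Neither gene had overlapping groups, where 12.1% of tested genes had every agonist library below every vehicle library. The log2 fold changes of Impdh2 and Impdh1 were -0.34 and -0.33 (limma, adjusted p = 0.242 and 0.172, or 0.0255 and 0.0453 when blocked). For Impdh1 the adjusted p with the block was 0.0663 after quantile normalization.

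Adss, which starts the branch to AMP, had 36.7, 38.0 and 40.2 FPKM in vehicle and 33.7, 31.7 and 32.3 FPKM in agonist cells, without overlap, and missed the threshold (log2 fold change -0.23, limma adjusted p = 0.248, or 0.0643 when blocked). Gmps, the GMP synthetase, had 10.5, 10.9 and 10.8 FPKM in vehicle and 9.50, 10.7 and 9.69 FPKM in agonist cells (-0.10, adjusted p = 0.606, or 0.280 when blocked). Of the enzymes from IMP onward, Gmps had the smallest difference.

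In the pyrimidine route 3 of 5 genes fell with the block, where 6.41% of all tested genes were called lower. The median log2 fold change of the 5 genes was -0.32. Cad (chromosome 5, 31054780 to 31078479), a single protein that carries out the opening 3 reactions, had 21.6, 30.3 and 26.8 FPKM in vehicle and 15.4, 21.5 and 20.9 FPKM in agonist cells. The highest agonist value of Cad was just below its lowest vehicle value, and the log2 fold change was -0.43 (SE 0.16; limma, adjusted p = 0.313, or 0.0208 when blocked). Umps, which turns orotate into UMP, had 18.4, 24.4 and 22.9 FPKM in vehicle and 15.5, 19.3 and 18.5 FPKM in agonist cells (-0.28, adjusted p = 0.387, or 0.0338 when blocked). Dhodh, the mitochondrial enzyme between them, had 4.73, 7.78 and 6.84 FPKM in vehicle and 4.13, 5.47 and 5.06 FPKM in agonist cells and did not pass (-0.32, adjusted p = 0.455, or 0.0702 when blocked). The groups of Umps and of Dhodh overlapped through vehicle replicate 1.

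Both CTP synthetases were measured, and they stood apart in level and in pattern over libraries. Ctps (chromosome 4, 120539868 to 120570276), the form that proliferating lymphocytes depend on, had 14.1, 21.8 and 20.1 FPKM in vehicle and 10.5, 15.4 and 13.5 FPKM in agonist cells, and fell with the block (log2 fold change -0.47, limma adjusted p = 0.333, or 0.0194 when blocked). Ctps2, on the X chromosome, had 8.54, 6.28 and 6.34 FPKM in vehicle and 8.08, 5.12 and 6.39 FPKM in agonist cells (-0.10, adjusted p = 0.838, or 0.408 when blocked). Ctps2 was highest in the libraries numbered 1, where Ctps was lowest.

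One-carbon units for the purine ring come from serine by way of folate. Mthfd1 (chromosome 12, 76255232 to 76319820), the cytosolic trifunctional enzyme that makes formyl folate, had the most negative log2 fold change of the 34 genes. It had 20.1, 32.2 and 28.7 FPKM in vehicle and 13.6, 19.4 and 18.1 FPKM in agonist cells, without overlap, and its mean fell by 36.8% (log2 fold change -0.62, SE 0.19, limma adjusted p = 0.239, or 0.0166 when blocked). Shmt1, the cytosolic serine hydroxymethyltransferase, had 10.6, 17.4 and 15.0 FPKM in vehicle and 7.01, 11.9 and 10.4 FPKM in agonist cells. Its groups overlapped, yet the within-pair differences were close to each other at -0.54, -0.51 and -0.49, and it fell with the block (-0.51, adjusted p = 0.364, or 0.0167 when blocked). Mthfd1l, which releases formate in mitochondria, had 18.7, 24.0 and 22.3 FPKM in vehicle and 15.1, 21.4 and 19.7 FPKM in agonist cells and did not pass (-0.21, adjusted p = 0.565, or 0.0675 when blocked).

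Of the 5 nucleotide kinases, which raise monophosphates and diphosphates to triphosphates, only Guk1 fell with the block. Among all tested genes, 6.41% were called lower with the block. Guk1, the guanylate kinase, had 15.3, 14.5 and 15.0 FPKM in vehicle and 11.4, 12.6 and 11.8 FPKM in agonist cells, without overlap (log2 fold change -0.30, limma adjusted p = 0.167, and 0.0450 with the block, and 0.0645 with quantile normalization as well). Cmpk1, the UMP and CMP kinase, had 19.1, 21.6 and 23.0 FPKM in vehicle and 18.9, 21.2 and 21.9 FPKM in agonist cells. Dtymk, the thymidylate kinase, had 36.7, 36.9 and 44.3 FPKM in vehicle and 30, 44.5 and 44.9 FPKM in agonist cells, lower in pair 1 and higher in pairs 2 and 3. Their log2 fold changes were -0.03 (SE 0.10) and 0.00 (SE 0.17), and neither passed (adjusted p = 0.912 and 1.0, or 0.651 and 1.0 when blocked).

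The nucleoside diphosphate kinase genes Nme1 and Nme2 are neighbours on chromosome 11. Nme1 had 27.5, 33.1 and 29.8 FPKM in vehicle and 17.9, 29.2 and 22.8 FPKM in agonist cells, and Nme2 had 182, 179 and 186 FPKM in vehicle and 145, 187 and 155 FPKM in agonist cells. The log2 fold changes were -0.38 and -0.17, and neither passed limma's test (adjusted p = 0.377 and 0.522, or 0.0618 and 0.273 when blocked). Both overlap a read-through gene model on the same strand, Gm20390, which was itself listed at 170 to 257 FPKM, so how their reads were divided is uncertain. With coverage in place of FPKM and the block, both were called lower (adjusted p = 0.0142 and 0.0373).

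Among the enzymes that shape the pool of deoxynucleotides, Dut and Dctd fell with the block and Samhd1 did not differ beyond its spread. With the block, 6.41% of all tested genes were called lower. Dut, the dUTPase that keeps uracil out of DNA, had 69.9, 92.6 and 86.0 FPKM in vehicle and 54.0, 74.3 and 71.4 FPKM in agonist cells (log2 fold change -0.32, limma adjusted p = 0.415, or 0.0255 when blocked). Dctd, which deaminates dCMP to the precursor of thymidylate, had 3.33, 4.68 and 3.27 FPKM in vehicle and 2.03, 2.68 and 2.11 FPKM in agonist cells, without overlap (-0.53, adjusted p = 0.201, or 0.0275 when blocked). At these low FPKM the pseudocount of 1 shrinks the fold change, and the mean of Dctd fell by 39.6% on the linear scale. Samhd1, which degrades deoxynucleoside triphosphates and restrains their level in resting cells, had 215, 156 and 173 FPKM in vehicle and 206, 165 and 192 FPKM in agonist cells (0.06, SE 0.14, adjusted p = 0.899, or 0.571 when blocked). Samhd1 was highest in the libraries numbered 1, unlike most of the other members.

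Among the salvage enzymes, 3 of 6 were lower at the threshold with the block, where 6.41% of all tested genes were called lower. All 6 had a negative log2 fold change, as did 57.2% of tested genes, and their median was -0.28. Aprt (chromosome 8, 122574637 to 122576907), which returns adenine to AMP, had 51.6, 56.7 and 50.7 FPKM in vehicle and 37.7, 44.0 and 40.5 FPKM in agonist cells. Ada, the deaminase of adenosine and deoxyadenosine whose loss causes immunodeficiency, had 7.87, 9.47 and 9.09 FPKM in vehicle and 6.03, 6.80 and 6.99 FPKM in agonist cells. Uck2, the uridine and cytidine kinase of dividing cells, had 32.8, 41.0 and 41.5 FPKM in vehicle and 25.3, 28.8 and 30 FPKM in agonist cells. None of these 3 had overlapping groups, where 12.1% of tested genes had every agonist library below every vehicle library. All 3 fell with the block, with log2 fold changes of -0.37, -0.37 and -0.44 (limma, adjusted p = 0.156, 0.193 and 0.182, or 0.0219, 0.0297 and 0.0194 when blocked).

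The other salvage genes did not pass. Hprt, which recovers hypoxanthine and guanine and often serves as a reference gene, had 97.5, 111 and 108 FPKM in vehicle and 82.7, 99.0 and 95.3 FPKM in agonist cells (log2 fold change -0.19, limma adjusted p = 0.437, or 0.0592 when blocked). Pnp, the purine nucleoside phosphorylase, had 20.3, 21.1 and 21.3 FPKM in vehicle and 18.1, 21.1 and 18.2 FPKM in agonist cells (-0.12, adjusted p = 0.550, or 0.240 when blocked). The tandem copy Pnp2 lies within the span of the Pnp model and had 4.65 to 6.96 FPKM, so reads of both may not have been told apart. Dck, the deoxycytidine kinase that starts salvage of several deoxynucleosides, had 40.6, 49.1 and 56.8 FPKM in vehicle and 39.8, 47.6 and 56.1 FPKM in agonist cells. The within-pair differences of Dck were -0.03, -0.04 and -0.02, while its SD within a group was 8.11 FPKM in vehicle and 8.15 FPKM in agonist cells (adjusted p = 0.956, or 0.674 when blocked).

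**Figure D3:**
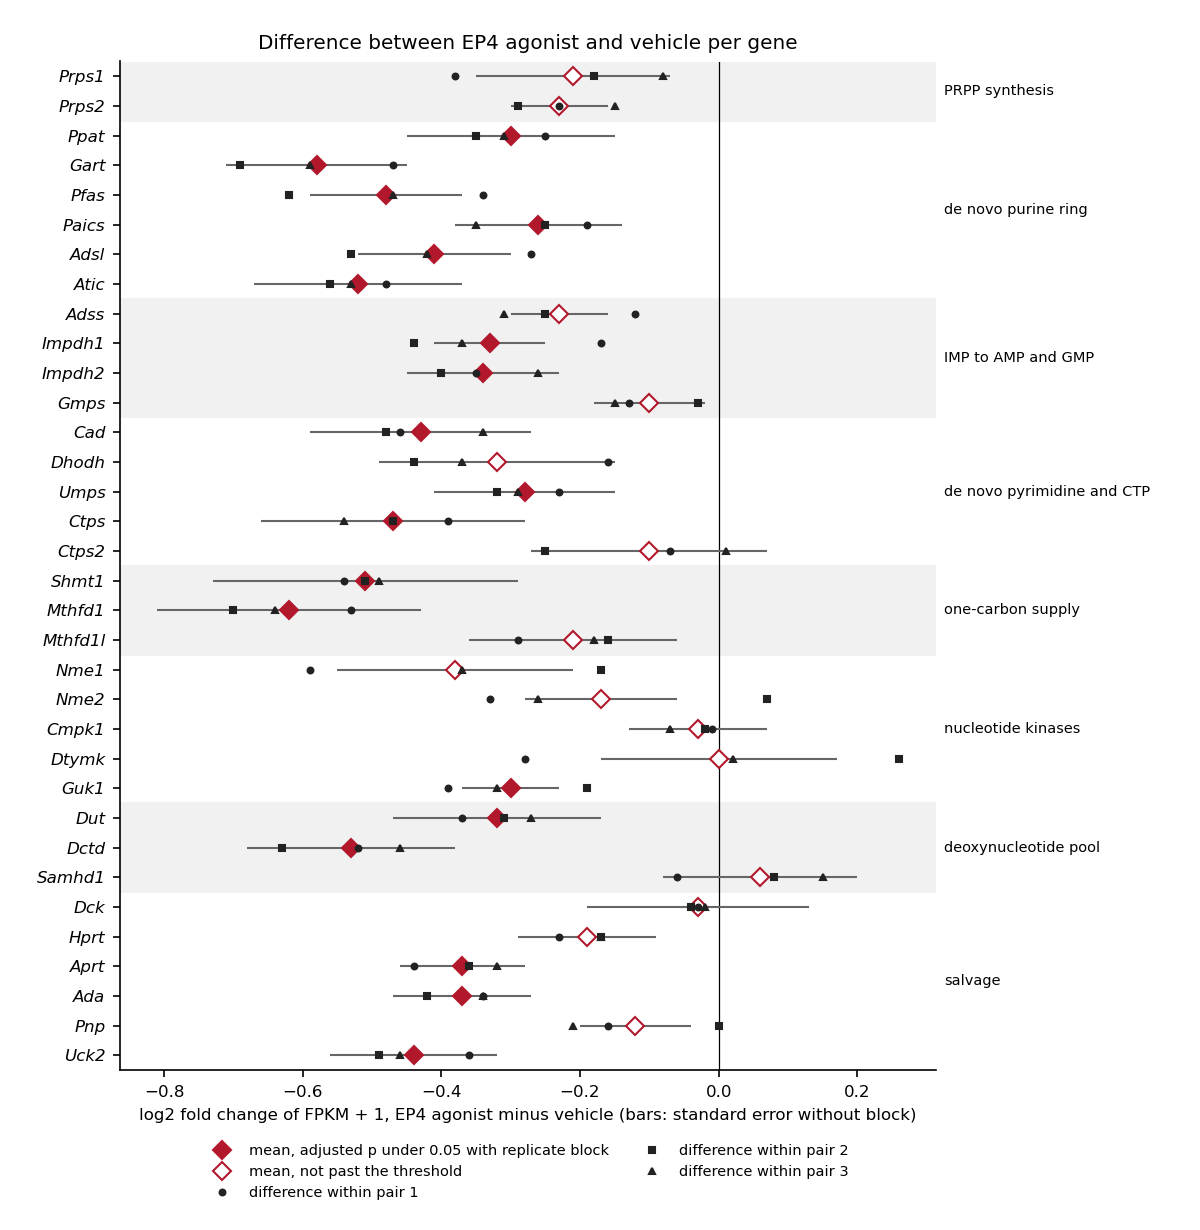
Log2 fold change of FPKM + 1 (agonist minus vehicle) for each gene, with the mean as a diamond, the standard error without the block as a bar, and the difference within pairs 1, 2 and 3 as small black marks. Filled diamonds are the 19 genes with an adjusted p under 0.05 with the replicate block, all left of 0; the marks straddle 0 for Nme2, Dtymk, Samhd1 and Ctps2, and Pnp was at 0.00 in pair 2.

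Set side by side by step, the count that fell with the block was 6 of 6 for the purine ring, 2 of 4 from IMP to AMP and GMP, 3 of 5 for pyrimidines and CTP, 2 of 3 for one-carbon supply, 2 of 3 for the deoxynucleotide pool, 3 of 6 for salvage, 1 of 5 for the kinases and 0 of 2 for PRPP synthesis. Of all tested genes, 6.41% were called lower with the block. The median log2 fold changes, in the order of the steps above, were -0.44, -0.28, -0.32, -0.51, -0.32, -0.28, -0.17 and -0.22. The ranges overlapped between steps: the purine ring spanned -0.58 to -0.26, salvage -0.44 to -0.03 and the kinases -0.38 to 0.00. The groups hold 2 to 6 genes each, and differences between steps were not tested. Without pair 2 or without pair 3, the fit with the block called 0 of the 34 genes lower.

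The balance between isoenzymes was read as the log2 ratio of their values (FPKM + 1) within each library. For Impdh1 to Impdh2 it was -1.47 ± 0.04 with vehicle and -1.46 ± 0.15 with the agonist, and for Prps1 to Prps2 0.07 ± 0.12 and 0.09 ± 0.26. The Ctps to Ctps2 ratio was 0.67, 1.65 and 1.52 in vehicle replicates 1, 2 and 3 and 0.34, 1.42 and 0.98 in agonist replicates 1, 2 and 3, lower with the agonist in each pair but with overlapping groups. For Nme1 to Nme2 it was -2.56 ± 0.15 with vehicle and -2.77 ± 0.16 with the agonist, also lower in each pair (-2.68 and -2.95, -2.40 and -2.64, -2.61 and -2.71). Over the 4 pairs of genes, two-sided exact permutation tests of the difference, which did not use the pairing, gave p = 1.0, 1.0, 0.50 and 0.20 in the order given, and 1.0, 1.0, 1.0 and 0.80 after Benjamini-Hochberg adjustment, in a design whose smallest possible p is 0.10.

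Other genes of nucleotide metabolism came from lists of general knowledge, also chosen with earlier results of these data known. Of 76 further genes in the tables, 56 were tested, 0 passed without the block, and with it 14 fell and 2 rose, with a median log2 fold change of -0.16. With the block, 6.41% of all tested genes were called lower and 4.09% higher, and the 2 that rose are a share near that background. In the list of folate, thymidylate and serine genes 6 of 14 fell, among them Shmt2, the mitochondrial serine hydroxymethyltransferase, with 41.5, 71.1 and 59.9 FPKM in vehicle and 32.3, 43.3 and 37.5 FPKM in agonist cells (limma, adjusted p = 0.285, or 0.0253 when blocked). Dnph1, a hydrolase of modified deoxynucleotides, had 11.6, 17.1 and 15.3 FPKM in vehicle and 7.87, 9.05 and 9.37 FPKM in agonist cells, the most negative difference among the called genes of these lists (log2 fold change -0.67, adjusted p = 0.131, or 0.0208 when blocked). In the ribonucleotide reductase list 1 of 3 fell, in that of other kinases 3 of 14 fell and 1 rose, and in that of catabolism and interconversion 4 of 17 fell and 1 rose. No gene passed among the 5 tested genes of other PRPP and synthesis enzymes or the 3 tested nucleoside transporters.

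The 2 genes that rose with the block both handle adenosine and AMP. Adk, the adenosine kinase that phosphorylates adenosine to AMP, had 15.0, 14.7 and 16.0 FPKM in vehicle and 20.1, 20.9 and 21.9 FPKM in agonist cells, above the vehicle range in every library (log2 fold change 0.44, SE 0.07, limma adjusted p = 0.0735, or 0.0187 when blocked). Nt5e, which encodes CD73, the ectoenzyme that turns AMP into adenosine outside Tregs, had 27.7, 24.7 and 25.3 FPKM in vehicle and 31.6, 31.1 and 33.6 FPKM in agonist cells, also without overlap (0.30, adjusted p = 0.174, or 0.0426 when blocked). Adenosine deaminase, Ada, differed from these in direction, with a log2 fold change of -0.37.

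**Figure D4:**
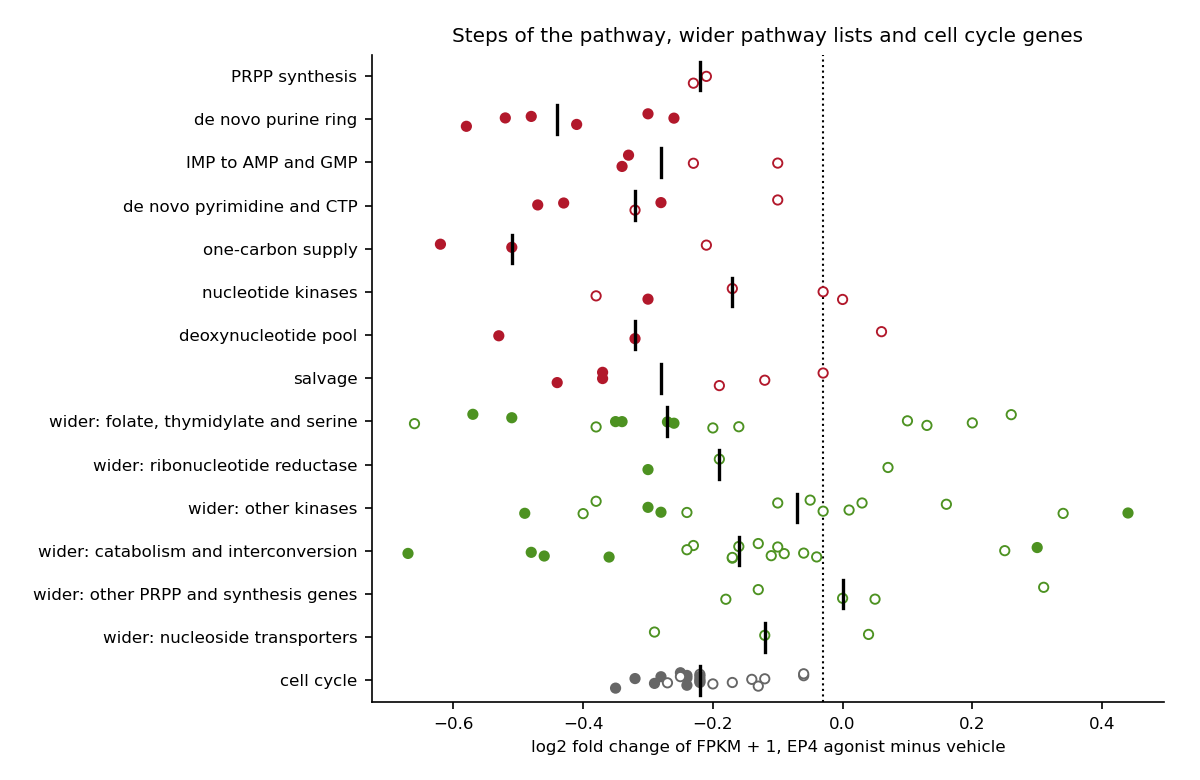
Log2 fold change of FPKM + 1 for each tested gene of the 8 steps (red), of the wider lists of nucleotide metabolism (green) and of the cell cycle list (grey); filled circles passed at an adjusted p under 0.05 with the replicate block, black bars are the median of a list, and the dotted line is the median of all tested genes at -0.03. The purine ring (median -0.44) and one-carbon supply (-0.51) lie farthest to the left, and Adk (0.44) and Nt5e (0.30) are the filled points on the right.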

How the data were processed

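Gene abundances of 6 nTreg libraries were used, 3 per group, with group and replicate number from the titles. Per the submitters' processing notes, Trim Galore and HISAT2 were used on mm10, without versions. Which program, annotation and strand setting made the abundances is not given in the sources used here. The libraries were made with a stranded kit, per the labels' protocols. Per the file headers, the authors deposited FPKM and coverage for each gene; coverage (a signal) entered only as an alternative. Fragment counts are unknown, so no counting interval is given. Rows of 1 identifier were summed, which touched none of the 34 genes. The identifier, version and coordinates of 27 of the 34 equal those in GENCODE M21.

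Values were analysed as log2(FPKM + 1) for genes that reached 1 FPKM in 3 or more libraries. The pseudocount shrinks fold changes of genes with low FPKM. Agonist and vehicle were compared with limma 3.58.1 (trend and robust variances, statmod 1.5.0, R 4.3.3), with Benjamini-Hochberg adjustment over all tested genes and a threshold of 0.05. The script was tested on simulated data with planted changes larger than those of the members, so that test does not cover calls of their size. Tables and plots used Python 3.11.15, pandas 2.3.3, numpy 2.4.6 and matplotlib 3.10.9. The members and lists were chosen with earlier results of these data known; all members are named, and of the wider lists those genes, called in either fit, with the 2 highest and 2 lowest log2 fold changes.

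Same-numbered libraries were taken as paired, since each of the 3 same-numbered correlations exceeded 0.1. Pairs of different numbers gave -0.353 to 0.00197. Deviations from a group mean sum to 0, so positive same-numbered values push the others down, and the others are not separate evidence for the pairing. The labels do not say what the number stands for. Alternatives were other pseudocounts, filters, scalings, variance settings, coverage, the block and leaving out libraries or pairs.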

Additional observations from a re-analysis of the deposited data

How the results depend on the processing

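The count of all genes called by limma was 48, and it was 2 with no filter on low FPKM, 75 with upper quartile scaling, 96 with coverage, and 0 to 133 on leaving out 1 library. With the replicate block it was 1279 (498 higher and 781 lower), 997 with quantile normalization as well (519 higher and 478 lower), 2009 with coverage as well (added after the data were seen), and 241, 0 and 1 without pair 1, pair 2 and pair 3. The count of nucleotide genes called was 0 under the other pseudocounts, filters, scalings and variance settings and with coverage, and 0 to 2 on leaving out 1 library. With the block it was 19, and 16 with quantile normalization, 25 with coverage, and 5, 0 and 0 without pair 1, pair 2 and pair 3. Their median log2 fold change was -0.394 without vehicle replicate 1 and -0.232 without vehicle replicate 2, the ends of its range over all alternatives run. Of the 34 genes, 29 were lower in every fit that included them. The share of all tested genes that were lower in every fit was not computed. All fits reuse the same 6 libraries, so their agreement is not independent support.

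The sign changed for genes near 0. Dtymk was -0.000435 with a pseudocount of 0.1, -0.185 with coverage (with and without the block), -0.131 and -0.00932 with the block without pair 2 and pair 3, and -0.0962 to 0.186 without 1 library. Cmpk1 was 0.00544 with upper quartile scaling, 0.00869 with quantile normalization (with and without the block) and -0.105 to 0.0253 without 1 library. Dck was 0.0111, 0.0164 and -0.154 to 0.0930 likewise. Ctps2 was 0.0356 with coverage (with and without the block) and -0.249 to 0.0355 without 1 library, and Samhd1 was -0.0436 to 0.183. Without 1 library, the difference in log2 ratio was -0.0762 to 0.0535 for Impdh1 to Impdh2, -0.0947 to 0.155 for Prps1 to Prps2, -0.67 to -0.0784 for Ctps to Ctps2 and -0.271 to -0.114 for Nme1 to Nme2. The cause of these changes was not tested. Without fragment counts, the error of counting cannot be set beside the spread between libraries.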
